A study of Mus musculus with 6 samples.

Results

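The insulin-like growth factor (IGF) genes described here are 10 of the 52386 genes in the authors' gene table, taken by symbol: Igf2, H19, Igf1, Igf1r, Igf2r, Insr, Irs1, Irs2, Igfbp2 and Igfbp5. All 10 passed the authors' filter on low counts and stand among the 25157 genes with normalized counts. RNA was measured in nephron progenitor cells, the embryonic kidney cells that give rise to the nephron epithelium, sorted as GFP-positive cells from kidneys at embryonic day 18.5. There were 3 libraries from food-restricted pregnancies and 3 from control pregnancies, with restriction running from the vaginal plug through pregnancy. The size of the restriction is labelled in conflicting ways, as a diet of 30% of daily calories for each sample and of 70% in the description of the series, and the amount fed is unsettled here. Both diets share the CD-1 strain and the genotype Six2 Cre tg/+, a Cre transgene named for Six2, a transcription factor of nephron progenitors, so libraries without the transgene were not compared. What carries the GFP, and how many embryos or litters went into a library, the sources used here do not say. P-values therefore measure the spread between libraries, which may be partly technical.

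IGF2 and IGF1 are secreted growth factors that act through the IGF1 receptor (Igf1r) and the insulin receptor (Insr), receptor tyrosine kinases that pass the signal to the docking proteins IRS1 and IRS2 and on to PI3K and Akt. IGF2R binds IGF2 at the cell surface and carries it to lysosomes for breakdown, and the IGF binding proteins hold the ligands outside the cell. Igf2 and H19 are imprinted neighbours that share enhancers: Igf2 is read mainly from the paternal copy and the non-coding RNA H19 from the maternal copy. IGF2 is the main IGF of fetal growth, and IGF signalling is known to promote growth of the developing kidney.

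H19 and Igf2 each host a microRNA. The mature sequences are shown because the host counts below say nothing on how much of each microRNA was made, and no count of either was analysed. They are RefSeq sequences on build GRCm38.p6, written 5′ to 3′, with the seed (bases 2 to 8) in capitals. All lie on the minus strand of chromosome 7, and all 4 seeds differ. Mir675 lies in an exon of H19, and Mir483 lies within Igf2 but outside its exons.
mmu-miR-675-5p: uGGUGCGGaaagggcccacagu
mmu-miR-675-3p: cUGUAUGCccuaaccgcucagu
mmu-miR-483-5p: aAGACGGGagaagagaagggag
mmu-miR-483-3p: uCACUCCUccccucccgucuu

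Promoter windows are shown for Igf2 and Igf1r, members that were higher in food-restricted libraries. Each holds 300 bases around a RefSeq start, mostly before it, on build GRCm38.p6, written in the direction of the gene, with the letters of a GC box (GGGCGG, or CCGCCC on the other strand) in capitals. Of the 10 genes, 8 had at least 1 window in the RefSeq table, 12 windows in all, while H19 and Insr had none. Igf2 has 4 windows. The Igf2 windows chr7:142658755-142659054 and chr7:142657447-142657746, both on the minus strand, hold 1 and 2 GC boxes and are 64.7% and 63.3% G or C. The other windows of Igf2, chr7:142666767-142667066 and chr7:142661222-142661521, hold 0 GC boxes, are 52.3% and 49.7% G or C, and are not printed. The Igf1r window chr7:67952007-67952306, on the plus strand, holds 2 GC boxes and is 76.0% G or C. GC boxes are not particular to the members that were higher. Among members not called, the windows of Igf2r, Irs1 and Irs2 hold 3, 2 and 1. Of the Igfbp2 windows, 1 holds 3 and the other 0, and those of Igfbp5 and Igf1 hold 0. Among all 32851 windows of the table, 35.7% hold at least 1 GC box and the median G or C content is 52.7%. None of the 12 windows holds TATAAA on either strand, which 13.6% of all windows do. These matches describe letters only, and no binding was measured.
Igf2, window at 142658755: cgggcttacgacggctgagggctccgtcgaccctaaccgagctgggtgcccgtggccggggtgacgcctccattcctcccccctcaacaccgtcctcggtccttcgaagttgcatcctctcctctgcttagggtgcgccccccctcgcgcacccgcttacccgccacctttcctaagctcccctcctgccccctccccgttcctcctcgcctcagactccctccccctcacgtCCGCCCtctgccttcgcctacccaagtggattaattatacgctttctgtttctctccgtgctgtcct
Igf2, window at 142657447: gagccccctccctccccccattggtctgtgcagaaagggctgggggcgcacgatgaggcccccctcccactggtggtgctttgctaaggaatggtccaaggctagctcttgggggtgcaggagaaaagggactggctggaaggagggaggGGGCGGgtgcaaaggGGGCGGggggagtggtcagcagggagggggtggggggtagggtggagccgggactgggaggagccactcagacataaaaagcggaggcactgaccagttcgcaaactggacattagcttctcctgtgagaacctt
Igf1r, window at 67952007: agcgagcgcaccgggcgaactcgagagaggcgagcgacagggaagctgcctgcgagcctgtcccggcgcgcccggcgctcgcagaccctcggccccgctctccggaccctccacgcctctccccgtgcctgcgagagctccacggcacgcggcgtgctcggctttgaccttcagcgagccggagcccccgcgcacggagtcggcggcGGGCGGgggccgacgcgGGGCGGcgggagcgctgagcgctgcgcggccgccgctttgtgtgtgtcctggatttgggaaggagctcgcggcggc

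Set per length, H19, Igfbp5 and Igf2 were among the most abundant RNAs of these cells and Igf1 was barely detected. The level used is the normalized count, a read count divided by the authors' size factor for the library, per kilobase of annotated exon, and ranges cover all 6 libraries. H19 averaged 13264 (12588 to 14186), Igfbp5 averaged 4029 (3890 to 4154) and Igf2 averaged 2666 (2430 to 2875). These levels ranked 15, 33 and 52 among 25084 genes with an exon length. Below them came Igf2r with a mean level of 370.5, Igfbp2 with 339, Igf1r with 329, Irs2 with 179.7, Irs1 with 136 and Insr with 108. Igf1 averaged 2.39 and ranked 19150. The ranges of neighbours in this order overlapped for Igf2r with Igfbp2, Igfbp2 with Igf1r, and Irs1 with Insr, so their order is not beyond the spread over libraries. Exon length is the union of all annotated transcripts, so genes with long, little-used exons are placed too low.

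**Figure D1:**
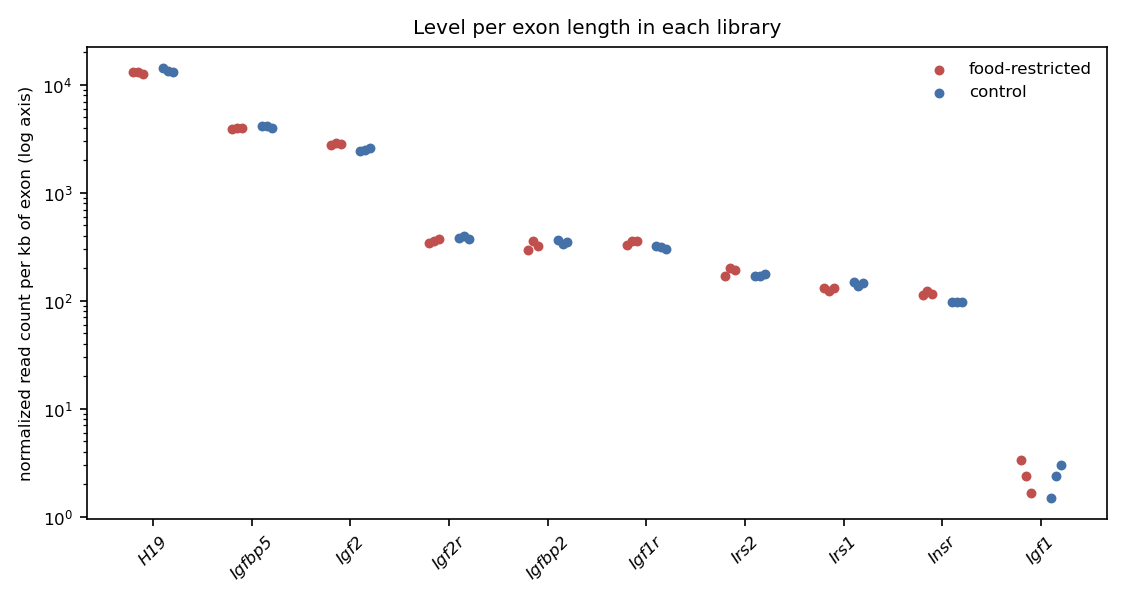
Normalized read count per kilobase of exon (log axis) for each of the 10 genes in each of 6 libraries, food-restricted (red) left of control (blue). Igf1 lies at 1.49 to 3.38, against 96.8 or more for every other gene.

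With food restriction, Igf2 and the signalling receptors Igf1r and Insr were higher, by 1.14-, 1.10- and 1.21-fold, and none of the 10 genes was called lower, although limma-voom on the read counts called 2 lower, H19 and Igfbp5. A gene was called at an adjusted p under 0.05 over all 25157 genes (limma). By that rule 3 of 10 members were called higher, where 2.24% of all genes were called higher, 2.50% lower and 4.74% in either direction. All members but Igf1 have high counts, where calls are more frequent. Among the 4647 genes with a mean normalized count of at least 500, a minimum chosen after values were seen, 5.77% were called higher and 13.7% in either direction. The median log2 fold change of the 10 genes was 0.03, against -0.0028 for all genes, with 5 members above 0 and 5 below. For 5 members no food-restricted library overlapped a control, namely Igf2, H19, Igf1r, Insr and Irs1, where 19.7% of all genes and 34.9% of those with a mean of at least 500 did not overlap. In the authors' deposited table the same 3 members passed an adjusted p of 0.05, with log2 fold changes of 0.18 for Igf2, 0.14 for Igf1r and 0.28 for Insr.

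**Figure D2:**
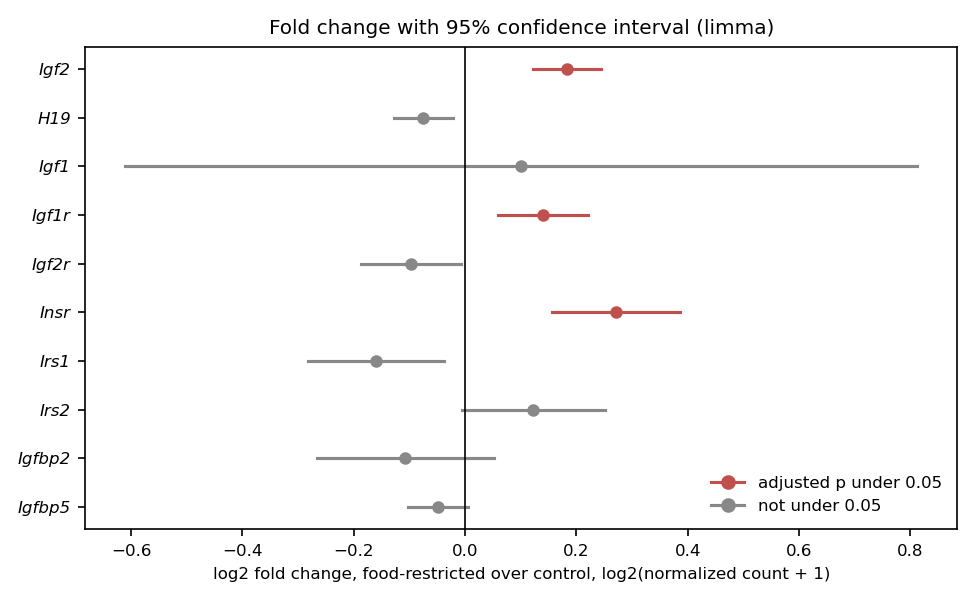
Log2 fold change, food-restricted over control, on the log2(normalized count + 1) scale, with 95% confidence intervals from limma (3 libraries per diet). Red marks the called genes Igf2, Igf1r and Insr, whose intervals lie above 0, and Igf1 has the widest interval. Intervals are not adjusted for the number of genes tested, and those of H19, Igf2r and Irs1 lie below 0 without a call.

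Of the ligands, Igf2 had 16024, 16452 and 16198 normalized counts in the food-restricted libraries, against 13905, 14230 and 14739 in the control libraries. Every food-restricted library was above every control library. The mean was 16225 ± 215 with food restriction and 14291 ± 420 in controls (SD, n = 3 each), a log2 fold change of 0.18 (SE 0.030, 95% interval 0.12 to 0.24, adjusted p = 1.85e-05). Igf2 stayed called when any 1 library was left out but not without limma's mean-variance trend (adjusted p = 0.481). The gene lies on chromosome 7 (GRCm38, 142650766 to 142666816, minus strand).

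Igf1, the other growth factor, had 33.4, 23.7 and 16.4 normalized counts in food-restricted libraries, against 14.8, 23.6 and 30.0 in control libraries. The ranges of the diets overlapped for the most part, with the highest value in a food-restricted library and the lowest in a control. These values rest on 19, 30 and 25 reads with food restriction and 16, 22 and 28 reads in controls. The log2 fold change was 0.10 with a 95% interval of -0.61 to 0.81 (adjusted p = 0.938), so these libraries fix neither its size nor its direction. The direction turns without food-restricted replicate 1 (-0.14) or control replicate 1 (-0.17). The insulin genes Ins1 and Ins2 had 2 and 8 reads in all libraries together and were not tested.

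H19, the non-coding neighbour 72.6 kb from Igf2, had 32216, 32151 and 30966 normalized counts in food-restricted libraries, against 34898, 32918 and 32622 in control libraries. All food-restricted libraries were below all controls, by a small margin. The mean was 31778 ± 704 with food restriction and 33479 ± 1237 in controls (SD, n = 3 each), a log2 fold change of -0.07 (SE 0.027, 95% interval -0.13 to -0.02) that was not called (adjusted p = 0.10). Without food-restricted replicate 1 it was called lower (-0.08, adjusted p = 0.0251), as it was with limma-voom on the read counts (-0.094, adjusted p = 1.93e-05). The ratio of H19 to Igf2 within a library, which no scaling of libraries can change, was 2.01, 1.95 and 1.91 with food restriction and 2.51, 2.31 and 2.21 in controls. The log2 ratio differed by -0.26, with no overlap between diets. Its exact permutation p was 0.10, the smallest that 3 against 3 libraries allow, or 0.15 adjusted over 6 ratios (two-sided).

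**Figure D3:**
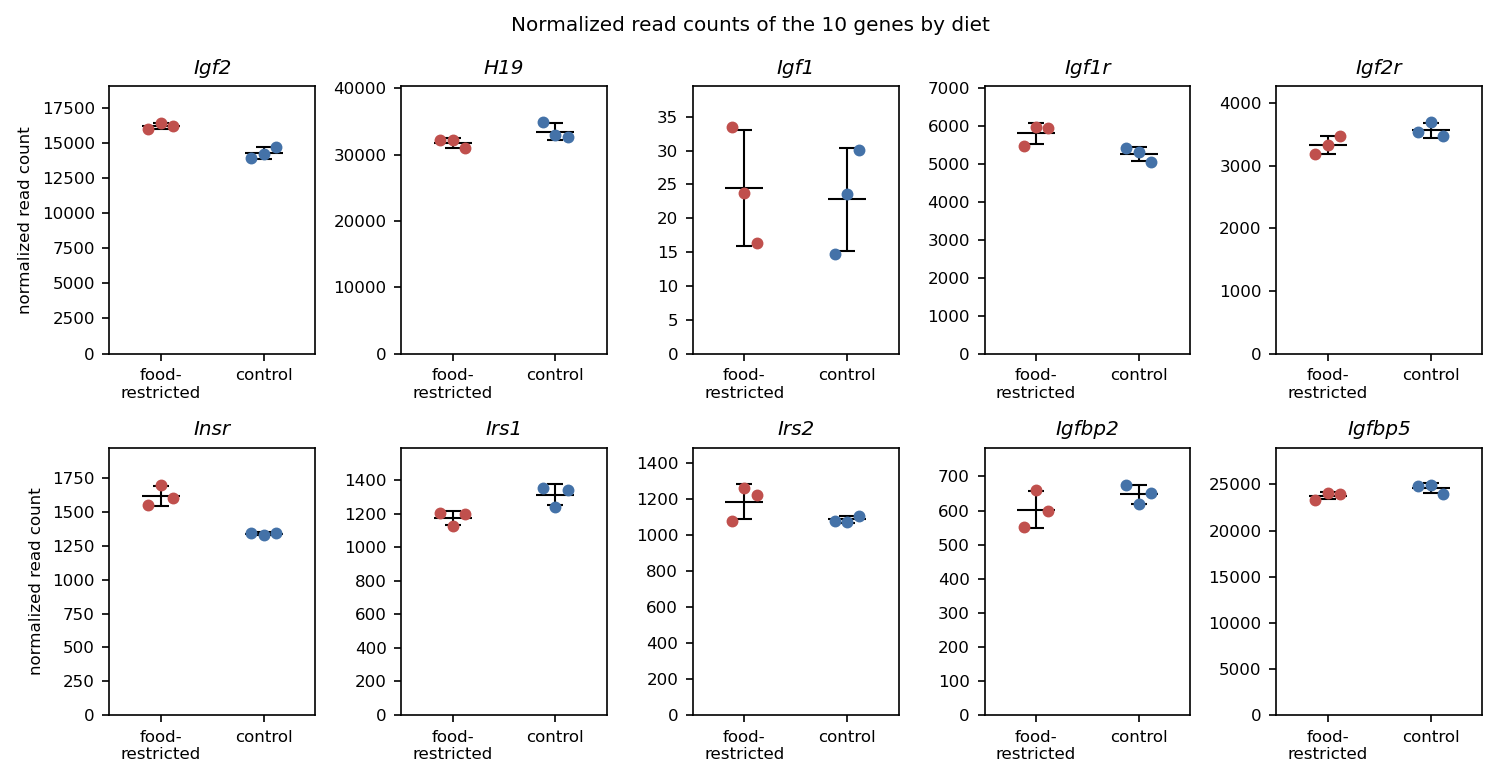
Normalized read counts of the 10 genes (axes start at 0, each panel on its own scale), food-restricted (red) left of control (blue). Points are libraries, the long bar is the mean and the whiskers are the SD (n = 3 per diet). The Igf2, Igf1r and Insr points lie higher with food restriction and those of H19 and Irs1 lower, each with no overlap.

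Among the receptors, Insr, which binds insulin and also IGF2, had 1556, 1701 and 1603 normalized counts in food-restricted libraries, against 1347, 1330 and 1348 in control libraries. The controls lay close together and every food-restricted library stood above them. Means were 1620 ± 74.1 with food restriction and 1342 ± 10.1 in controls (SD, n = 3 each), a log2 fold change of 0.27 (SE 0.057, 95% interval 0.16 to 0.39, adjusted p = 0.00103). This call held when any 1 library was left out, with adjusted p from 0.000465 to 0.0344, but not without the mean-variance trend (0.365). Insr lies on chromosome 8 (3122061 to 3279617, minus strand).

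Igf1r, the receptor through which both IGFs signal, had 5473, 5962 and 5953 normalized counts in food-restricted libraries, against 5411, 5321 and 5036 in control libraries. The diets did not overlap, but food-restricted replicate 1 lay just above control replicate 1. Means were 5796 ± 280 with food restriction and 5256 ± 196 in controls (SD, n = 3 each), a log2 fold change of 0.14 (SE 0.040, 95% interval 0.06 to 0.22, adjusted p = 0.0258). The call was lost in 5 of 6 fits that left out a library. The adjusted p was 0.219 without food-restricted replicate 2, 0.207 without food-restricted replicate 3, 0.0526 without control replicate 1, 0.0752 without control replicate 2 and 0.224 without control replicate 3. Without the mean-variance trend it was 0.609. Igf1r lies on chromosome 7 (67952827 to 68233668, plus strand), far from Igf2.

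Igf2r, the receptor that clears IGF2 and is itself imprinted in mice, did not pass the test. It had 3183, 3334 and 3482 normalized counts in food-restricted libraries, against 3533, 3691 and 3469 in control libraries, with overlap between food-restricted replicate 3 and control replicate 3. The log2 fold change was -0.10 (95% interval -0.19 to -0.01, adjusted p = 0.265). The within-library ratio of Igf1r to Igf2r was 1.72, 1.79 and 1.71 with food restriction and 1.53, 1.44 and 1.45 in controls. These ratios did not overlap (log2 difference 0.24, exact permutation p = 0.10, adjusted 0.15). The ratio of Igf1r to Insr was 3.52, 3.50 and 3.71 with food restriction and 4.02, 4.0 and 3.74 in controls, again without overlap (log2 difference -0.13, exact permutation p = 0.10, adjusted 0.15).

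The docking proteins IRS1 and IRS2, which bind the activated receptors, had fold changes of opposite sign, and neither was called. Irs1 had 1202, 1125 and 1197 normalized counts in food-restricted libraries, against 1357, 1242 and 1340 in control libraries. The diets did not overlap, and the log2 fold change was -0.16 (95% interval -0.28 to -0.04, adjusted p = 0.138). Irs2 had 1077, 1260 and 1220 normalized counts with food restriction and 1080, 1072 and 1109 in controls. Its libraries overlapped, with a log2 fold change of 0.12 (95% interval -0.01 to 0.25, adjusted p = 0.352). The ratio of Irs1 to Irs2 was 1.12, 0.893 and 0.981 with food restriction, against 1.26, 1.16 and 1.21 in controls. The diets did not overlap in this ratio (log2 difference -0.28, exact permutation p = 0.10, adjusted 0.15).

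The binding proteins Igfbp2 and Igfbp5, which hold IGFs outside the cell, lie 5.46 kb apart on chromosome 1, and neither was called. Igfbp5 had 23363, 24084 and 23930 normalized counts in food-restricted libraries, against 24866, 24950 and 24004 in control libraries. The ranges overlapped, and the log2 fold change was -0.05 (95% interval -0.10 to 0.01, adjusted p = 0.405). With limma-voom it was called lower (-0.041, adjusted p = 0.0157). Igfbp2 had 551, 659 and 598 normalized counts with food restriction and 674, 618 and 652 in controls, with overlap (log2 fold change -0.11, 95% interval -0.27 to 0.05, adjusted p = 0.570). Their ratio differed by 0.06 on the log2 scale (exact permutation p = 0.7, adjusted 0.8). The ratio of Igf1 to Igf2 differed by -0.08 (exact permutation p = 0.8, adjusted 0.8), and both ratios overlapped between diets.

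**Figure D4:**
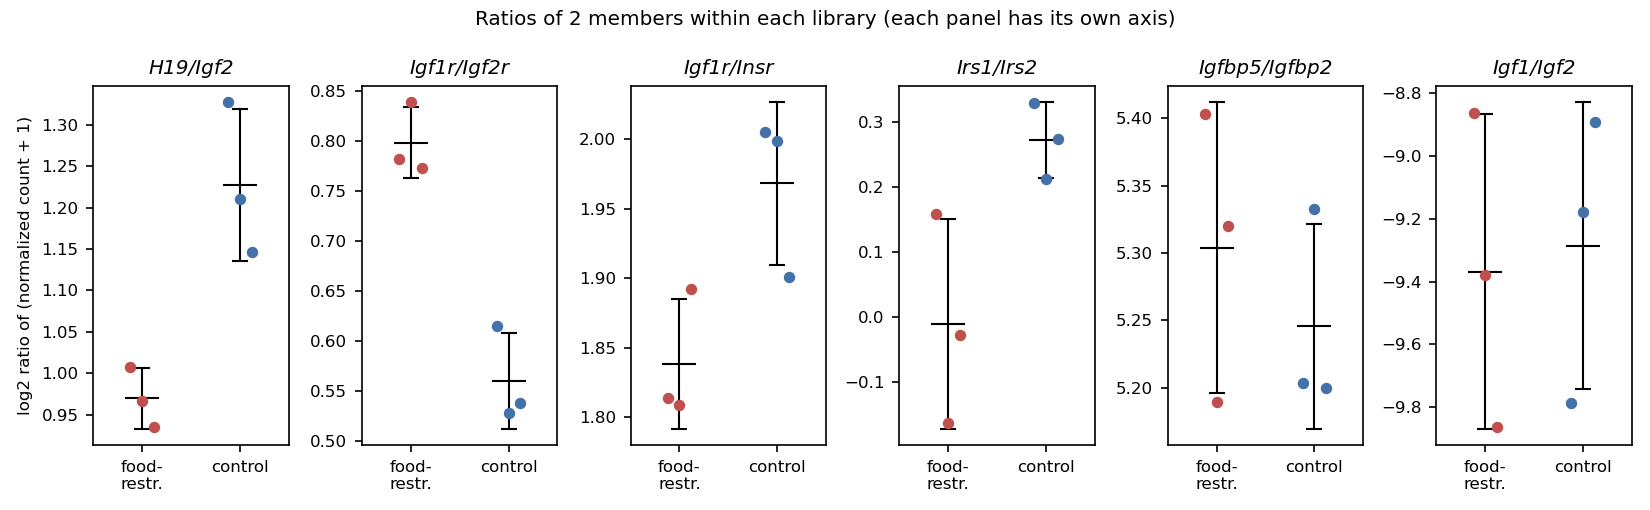
Log2 ratios between pairs of members within each library, on log2(normalized count + 1), food-restricted (red) left of control (blue), with mean and SD (n = 3 per diet, each panel on its own axis, which does not start at 0). H19/Igf2, Igf1r/Igf2r, Igf1r/Insr and Irs1/Irs2 do not overlap between diets, and the other ratios do. Each pair without overlap holds a member whose own values did not overlap, so these ratios are not separate evidence.

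Of 76 further genes of the pathway, chosen by role, 67 were tested, and 4 were called higher and 5 lower with food restriction (median log2 fold change 0.05). For comparison, 2.24% of all genes were called higher, 2.50% lower and 4.74% in either direction. Among genes with a mean normalized count of at least 500, 13.7% were called in either direction, and no test was run over the lists. None of the 9 pathway calls held without the mean-variance trend. The largest fold change among the called genes that rose was in Igf2bp3, an RNA-binding protein of fetal tissues that binds Igf2 mRNA. It had 528, 561 and 617 normalized counts in food-restricted libraries, against 322, 316 and 297 in control libraries (log2 fold change 0.86, SE 0.091, adjusted p = 9.89e-11). Its relative Igf2bp1 had 2885, 2922 and 3102 normalized counts with food restriction and 2672, 2464 and 2419 in controls (0.24, adjusted p = 0.000606). Both kept every food-restricted library above every control, while Igf2bp2 averaged 2287 ± 110.1 with food restriction and 2237 ± 17.5 in controls (log2 fold change 0.03, adjusted p = 0.848).

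Of 5 other receptors tested, the endocytic receptor Lrp1 rose, with 3822, 4368 and 4359 normalized counts in food-restricted libraries and 3204, 3261 and 3104 in controls (0.39, adjusted p = 4.94e-09). M6pr, the smaller mannose 6-phosphate receptor, fell to 539.6 ± 41.7 with food restriction, against 645 ± 28.1 in controls (-0.26, adjusted p = 0.0441). The M6pr call was lost when any 1 of 5 libraries was left out, food-restricted replicates 1 (adjusted p 0.176) and 3 (0.146) and control replicates 1 (0.0806), 2 (0.218) and 3 (0.108). Of 12 other binding proteins and their proteases, Igfbp7, a secreted protein of low IGF affinity, was the member called, at 49.96 ± 6.05 with food restriction and 90.6 ± 16.2 in controls (-0.84, adjusted p = 0.00648). Its call was lost without food-restricted replicate 3 (0.0547) or control replicate 3 (0.107).

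Of 16 other adaptors and brakes, the adaptor Sh2b1 was called higher, at 1108 ± 55.7 with food restriction and 946 ± 101 in controls (0.23, adjusted p = 0.0332). Socs3, a feedback inhibitor of cytokine and insulin signalling, was called lower, at 265 ± 47.6 with food restriction and 348 ± 20.3 in controls (-0.41, adjusted p = 0.0155). Both calls depended on which libraries entered the fit. Sh2b1 lost its call without food-restricted replicate 2 (0.243) or 3 (0.111) or control replicate 1 (0.0639) or 3 (0.376), and Socs3 without food-restricted replicate 1 (0.202) or control replicate 1 (0.155) or 3 (0.0503). Of 16 genes of the PI3K and Akt arm, Pik3r3, a regulatory subunit of PI3K, was called, at 475 ± 67.0 with food restriction and 618 ± 11.8 in controls (-0.39, adjusted p = 0.00201, and 0.0507 without food-restricted replicate 1). Akt1, the kinase downstream of PI3K, averaged 1444 ± 36.6 with food restriction and 1278 ± 4.94 in controls and did not pass (0.18, adjusted p = 0.0698).

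Of 14 tested genes around the imprinted Igf2 and Igf2r loci or known to regulate them, Lsp1, a neighbour of H19 on chromosome 7, was called. It had 3273, 3254 and 3094 normalized counts in food-restricted libraries, against 4299, 3937 and 3981 in control libraries (-0.34, adjusted p = 6.00e-08). The RNAs antisense to the imprinted genes did not pass the test. Igf2os, antisense to Igf2, averaged 156 ± 15.3 with food restriction and 113 ± 28.0 in controls (0.49, adjusted p = 0.0579). Airn, the antisense RNA of the Igf2r locus, averaged 360 ± 29.0 with food restriction and 297 ± 15.3 in controls (0.28, adjusted p = 0.110). The imprinting regulators Ctcf, Zfp57 and Trim28 were within 0.05 of 0 on the log2 scale and not called.

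**Figure D5:**
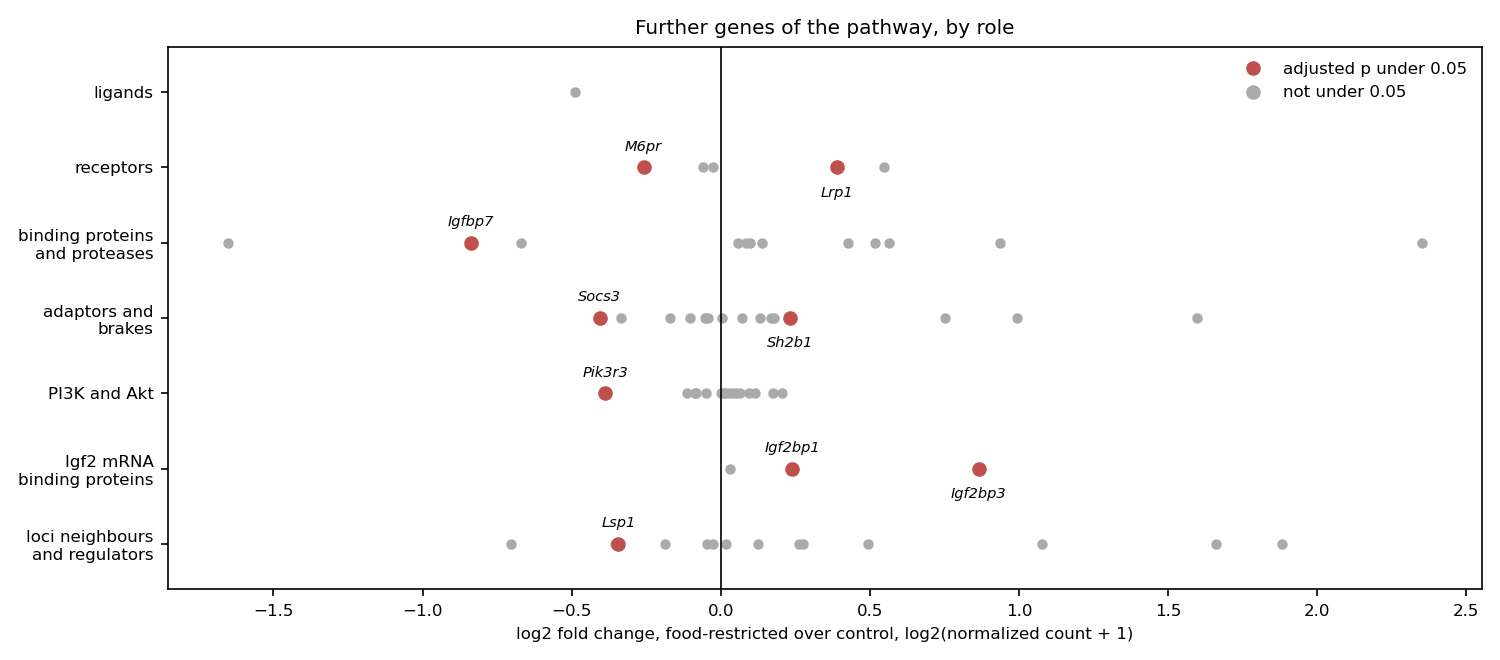
Log2 fold change, food-restricted over control, of 67 further pathway genes in rows by role, with 1 point per gene. The 9 called genes are red and named, 4 to the right of 0 and 5 to the left, and Igf2bp3 lies furthest right among them.

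The genes whose values over the 6 libraries were most like those of Igf2, by the root-mean-square difference of centred log2 values among 10059 genes with a mean of at least 100, were Rabl6 (0.0158), Rab11fip2 (0.0175) and Gm44215 (0.0217). Those most like H19 were Hsd17b4 (0.0145), Rnf6 (0.0166) and Ubtf (0.0166). Of these 6 genes, Rabl6 was called (log2 fold change 0.18, adjusted p = 0.0433). The match was made on the same libraries, diet difference included, so a fold change near that of Igf2 or H19 follows from the choice.

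Several genes share sequence with a member. Igf2 shares 3596 exon bases with Gm49394 on its own strand, not analysed here, and 98 with the antisense gene Igf2os. H19 shares 84 exon bases with Mir675 on its own strand. It also shares 71 with the antisense gene Gm27483 (43 reads over all libraries) and 70 with the antisense gene Gm27786 (15 reads). Irs1 shares 2822 exon bases with the antisense gene Gm9747, which had 14 reads over all libraries, and Irs2 shares 162 with the antisense gene 9530052E02Rik, which had 27. Whether counting used strand was not given in the labels or notes used here, so reads from the antisense stretches cannot be told apart between partners. For partners on the same strand, such as Igf2 and Gm49394, strand could not separate the reads in any case. Airn runs antisense to Igf2r but shares no exon base with it.

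Total counts were 6515127, 14188081 and 16763479 in food-restricted libraries, against 12338593, 10881013 and 10686582 in control libraries, and the 10 genes together took 0.738% to 0.775% of them with food restriction and 0.733% to 0.765% in controls. The sort label was checked with marker lists, given here as summed normalized counts. Nephron progenitor markers summed to 30014 to 31500 with food restriction and 32052 to 32626 in controls (2 of 10 called lower), and Six2 averaged 3989 ± 142 with food restriction and 4160 ± 191 in controls. Proximal tubule markers summed to 3306 to 3367 with food restriction and 5827 to 6286 in controls (9 of 10 called lower, none at 0). Stromal markers summed to 3320 to 3550 with food restriction and 2811 to 2838 in controls (4 of 12 called higher, none at 0), and macrophage markers to 455 to 496 with food restriction and 276 to 302 in controls (4 of 12 called higher, Aif1 and Lyz2 at 0 in at least 1 library). Ureteric bud markers summed to 275 to 346 with food restriction and 356 to 370 in controls (1 of 10 called lower). Wnt9b and Elf5 were at 0 in at least 1 library. The ureteric bud marker called was Hoxb7, at 147 ± 6.25 with food restriction and 221 ± 14.1 in controls. Those not called went both ways, with log2 fold changes from -0.40 for Calb1 to 1.27 for Tfap2b, so the lower sums do not hold for the list as a whole. Endothelial markers (232 to 275 with food restriction, 251 to 294 in controls) and erythroid markers (356 to 407 with food restriction, 378 to 428 in controls) overlapped between diets, with none called. Sex-linked RNAs also differed between the libraries of the diets, in opposite directions, both called and without overlap. Xist, the X-inactivation RNA of female cells, averaged 26601 ± 547 with food restriction and 17654 ± 840 in controls, and the Y-linked Ddx3y averaged 336 ± 22.01 with food restriction and 749 ± 58.3 in controls. The part of other cell types, embryo sex or depth in the differences of Igf2, Igf1r and Insr was not tested, and in bulk RNA fewer cells of a type and less RNA per cell cannot be told apart.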

How the data were processed

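Per the submitters' processing notes, the authors' tools included DESeq2 1.22.1, HTSeq 0.6.0, TopHat2 2.1.1, cutadapt 1.18 and bcl2fastq 2.18.0.12 (build GRCm38), and the labels name a SMARTer stranded total RNA kit for low input. The authors deposited whole read counts, the same counts divided by a size factor per library (normalized counts, for 25157 genes), and their own fold changes.

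Here limma 3.58.1 (R 4.3.3) was run on log2(normalized count + 1), with diet as the only term, a mean-variance trend, two-sided, Benjamini-Hochberg over all 25157 genes, called under 0.05. Ratios were tested by exact permutation. Exon lengths came from GENCODE annotation on GRCm38 and sequences from RefSeq. The members and gene lists were chosen with earlier results of these data known. All 10 members, every called gene of the pathway lists, Xist, Ddx3y and the marker lists were to be named, plus the genes most like Igf2 and H19. Some marker results are not reported here. Others named (such as Akt1, Airn, Igf2os and Igf2bp2) were chosen after their values were seen. Alternatives covered pseudocount, filter, scaling, the trend, voom weights, a replicate block and leaving out each library.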

Additional observations from a re-analysis of the deposited data

How the results depend on the processing

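Over 14 alternatives per gene, members gave the same call and direction in 125 fits, lost the call in 9, gained it in 3 and turned direction in 3, and called pathway genes kept it in 97 and lost it in 29. Without the mean-variance trend, 2 genes were called higher and 3 lower, 0 members and 0 pathway genes in either direction, with Igf2 at 0.18 (adjusted p = 0.481), Igf1r at 0.14 (0.609) and Insr at 0.27 (0.365). With voom weights, H19 (-0.094, adjusted p = 1.93e-05) and Igfbp5 (-0.041, 0.0157) made 2 members called lower, 3 pathway genes were lower, and Igf1 turned to -0.011. M6pr missed the call with trimmed-mean scaling (0.0561), upper-quartile scaling (0.0584), voom (0.0675) and the block, and Socs3 with voom (0.0542). Leaving out a library gave 240 to 605 genes higher and 324 to 752 lower, 2 to 3 members higher and 0 to 1 lower, and 3 to 6 pathway genes higher and 2 to 5 lower. The fewest were called without food-restricted replicate 3. Higher calls were also fewer without food-restricted replicate 2 (292) or control replicate 1 (351), 2 (365) or 3 (350), and lower calls without control replicate 1 (397), 2 (401) or 3 (415). The log2 fold change ranged from -0.093 to -0.045 for H19, -0.17 to 0.35 for Igf1 and 0.11 to 0.18 for Igf1r, and the log2 difference of Igf1/Igf2 from -0.34 to 0.17, above 0 without food-restricted replicate 3 (0.17) or control replicate 3 (0.11). The cause of these changes was not tested. Same-numbered libraries did not vary together (correlations of deviations -0.111, 0.0262 and -0.0718). With deviations taken within 3 libraries per diet, these values cannot settle whether the numbers pair libraries. With a replicate block Igf1r stayed at 0.14 but missed the call (0.0763), as did M6pr (0.0604). Other scalings moved the median of all genes by 0.00775 and 0.0117. The planned edgeR and DESeq2 fits were not run, and limma-voom was the alternative test fitted to the read counts. Igf1 had the fewest reads of the 10 genes, 16 to 30 per library.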
